A study of Mus musculus with 2 samples.

Results

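The genes described here are 34 mouse genes of glycolysis and of the hypoxia response, chosen by symbol, of the 31053 genes listed in the deposited matrices. They comprise 18 glycolytic enzymes and regulators of their flux, 4 transporters of glucose or lactate, the hypoxia-inducible transcription factor subunit Hif1a, and 11 hypoxia targets outside glycolysis. All 34 were present in the matrices, and 30 of them reached 10 CPM (UMIs per 1000000 UMIs) in at least 1 library, as did 8012 genes in all. The other 4 (Pfkm, Aldoc, Egln3 and Ddit4) stayed under 10 CPM in both libraries.

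The cells were cultures of 129Sv mouse bone marrow grown with 50 ng/ml M-CSF, which turns marrow precursors into macrophages. Treatment began on day 7 and lasted 18 h, with 5% dextrose as vehicle or with Tamm-Horsfall protein (THP, the kidney protein uromodulin) in a truncated form that does not polymerize, at 1 µg/ml. Cells were detached, depleted of dead cells and made into droplet libraries in which molecular identifiers (UMIs) count the RNA molecules captured from each barcoded cell. Each group was 1 library of wild-type cells, the labels give no number of animals, and the 2 libraries shared 42 barcodes, of which 38 were in kept cells. With 1 library per group no test of the treatment is possible, and the treatment cannot be told apart from the culture dish or the library preparation. Intervals below are exact 95% Poisson or binomial intervals and cover counting error only.

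Glycolysis splits glucose into pyruvate: transporters bring glucose in, hexokinase traps it, phosphofructokinase commits it, and the later enzymes harvest energy before lactate dehydrogenase turns pyruvate into lactate for export. Hypoxia-inducible factor (HIF) is held low by oxygen-dependent prolyl hydroxylases, and when stabilised it binds a short DNA core in genes for glucose transport, glycolysis, mitophagy and vessel growth. Macrophages stimulated with bacterial products are known to raise glucose uptake and lactate output, and HIF-1 takes part in that response.

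The promoter sequence of the genes is shown first, because many of them are known HIF targets. Windows of 250 bases before to 50 bases after an annotated start were taken from RefSeq (GRCm38.p6) for 32 of the 34 genes (Bnip3l and Ndrg1 were not matched), 46 windows in all. The HIF core, searched as ACGTG or GCGTG on both strands, was in 38 of the 46 windows (82.6%), against 43.8% of 32851 windows of the same length over all genes. The median GC content was 62.8% in the windows of these genes and 52.7% over all windows, and the core holds a CG, so the 2 shares are a description only. By role, 16 of 18 enzymes, 4 of 4 transporters, 9 of 9 hypoxia targets with a window and Hif1a had a core in at least 1 window. These are counts per gene, for which no share over all genes was taken. The NF-kB consensus was searched on both strands as GGG, A or G, any base, A or T, C or T at 2 positions, then CC. It was in 1 of the 46 windows (of Vegfa), and in 4.51% of all windows. Below are the 250 bases before the start for the 3 transporters that were higher in the THP library, for Hk1, which was lower, and for Ldha, a textbook HIF target. They are written 5′ to 3′ on the gene's strand with every HIF core in capitals, and overlapping cores run together. The stretch of Slc2a6 lies just upstream of the gene, that of Slc2a1 runs across its annotated start, and those of Slc16a3, Hk1 and Ldha lie inside the annotated gene, upstream of one of its RefSeq starts.
Slc2a1 (chr4:119108495-119108744, plus strand): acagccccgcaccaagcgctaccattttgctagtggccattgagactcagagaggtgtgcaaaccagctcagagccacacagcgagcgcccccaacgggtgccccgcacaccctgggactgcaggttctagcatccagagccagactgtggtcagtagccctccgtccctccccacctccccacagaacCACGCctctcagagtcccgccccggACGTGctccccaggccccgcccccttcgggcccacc
Slc2a6 (chr2:27027999-27028248, minus strand): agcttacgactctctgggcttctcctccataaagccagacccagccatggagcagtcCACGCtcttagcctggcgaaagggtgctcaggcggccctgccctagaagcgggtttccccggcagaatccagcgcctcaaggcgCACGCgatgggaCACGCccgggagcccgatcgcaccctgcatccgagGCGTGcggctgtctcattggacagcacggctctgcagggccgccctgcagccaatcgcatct
Slc16a3 (chr11:120948817-120949066, plus strand): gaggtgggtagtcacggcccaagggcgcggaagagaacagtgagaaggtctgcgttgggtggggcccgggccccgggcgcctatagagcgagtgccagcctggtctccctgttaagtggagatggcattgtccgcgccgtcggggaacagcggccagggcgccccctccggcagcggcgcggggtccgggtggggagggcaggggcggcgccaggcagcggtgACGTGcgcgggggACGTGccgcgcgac
Hk1 (chr10:62340422-62340671, minus strand): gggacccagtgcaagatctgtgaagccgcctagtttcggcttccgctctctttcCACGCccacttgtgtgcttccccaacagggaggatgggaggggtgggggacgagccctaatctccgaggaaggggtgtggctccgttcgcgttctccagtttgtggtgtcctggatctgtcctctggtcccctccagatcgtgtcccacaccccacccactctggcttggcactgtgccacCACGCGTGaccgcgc
Ldha (chr7:46845554-46845803, plus strand): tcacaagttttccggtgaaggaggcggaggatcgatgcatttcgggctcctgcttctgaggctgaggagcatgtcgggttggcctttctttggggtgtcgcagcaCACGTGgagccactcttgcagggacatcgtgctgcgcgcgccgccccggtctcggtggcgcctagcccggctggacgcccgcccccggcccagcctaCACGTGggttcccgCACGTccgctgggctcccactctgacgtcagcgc
Within these stretches Slc2a6 held 4 cores, Ldha 5, Hk1 3, and Slc2a1 and Slc16a3 held 2 each. So Slc2a6, which was higher in the THP library, and Hk1, which was lower, both held the letters in these stretches. The other Hk1 window, at the gene's annotated start, held none. A match of letters does not show that a factor binds.

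Kept cells numbered 12123 in the THP library (224825484 UMIs, median 16113 per cell) and 10978 in the vehicle library (207662132 UMIs, median 17223). The inflammatory genes Tnf and Il1b were at 117 and 67.3 CPM in the THP library against 18.9 and 9.58 in the vehicle library. Over all 8012 genes the median log2 ratio of CPM + 1, THP over vehicle, was -0.18, so a ratio of 0 already lies above most genes. Scaling by TMM instead of library totals moved that median to 0.11, and RLE scaling moved it to 0.10. The ratio was also lower for longer transcripts, with a Spearman correlation across genes of -0.55 over 8011 genes, which are not independent replicates. Ratios with the length trend taken out are therefore given where they differ.

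Across all kept cells, 2 glucose transporters and a lactate exporter were higher in the THP library, the hexokinase Hk1 was lower, and the enzymes from aldolase to lactate dehydrogenase differed by less than 1.5-fold, apart from Aldoa and Tpi1 with TMM scaling and Tpi1 with RLE scaling. A fold here is the ratio of CPM + 1, THP over vehicle, for genes at 10 CPM or more in at least 1 library. Slc2a6 was the only one of the 34 past 2-fold, higher in the THP library, where 0.911% of the 8012 genes were past 2-fold higher; none was past 2-fold lower, where 2.97% of genes were. Slc2a1 joined it with TMM or RLE scaling, and with the length correction none of the 34 was past 2-fold. At 1.5-fold, 3 of the 30 genes were higher (2.33% of all genes) and 5 were lower (17.3% of all genes). With TMM scaling 6 were higher (7.08% of all genes; Aldoa, Tpi1 and Mif came in) and Hk1 alone was lower (5.66%), and with the length correction Hk1 and Pfkfb4 alone were lower (9.95%). The 30 genes had a median log2 ratio of -0.065, with 13 above 0 and 17 below, and 18 of the 30 lay above the median of all genes. The enzymes (16 at 10 CPM or more) had a median of -0.039 and the hypoxia targets (9) of -0.29; 10 of the 16 enzymes and 4 of the 9 targets lay above the median of all genes. With TMM scaling the enzyme median turned to 0.25 and the target median to -0.018. Over all kept cells, then, the sign of the enzyme median depends on the scaling while enzymes stayed above targets. The order was reversed in the mature neutrophil-gated cells described below.

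**Figure D1:**
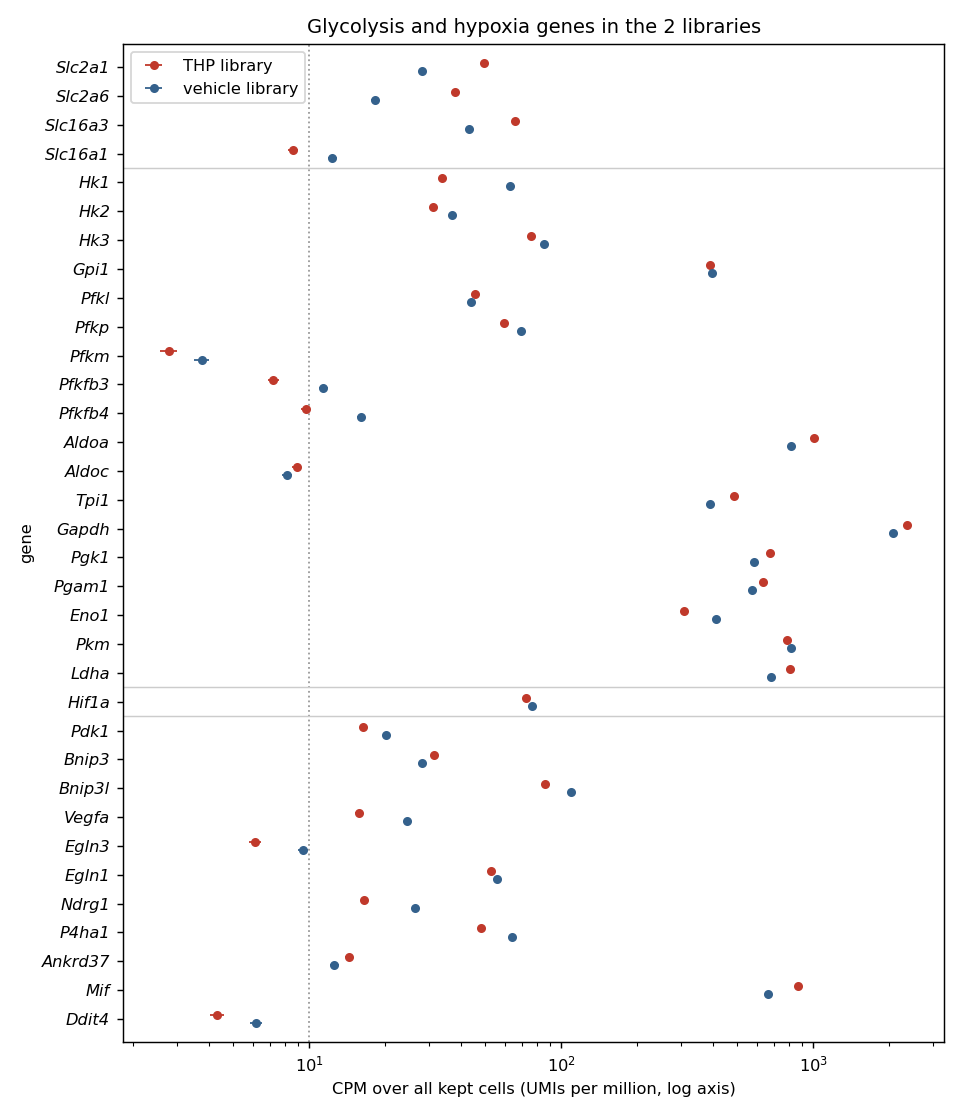
Level of each of the 34 genes in CPM (log axis) over all kept cells of the THP library and the vehicle library, grouped by role, with exact 95% Poisson bars (often smaller than the points) and a dotted line at 10 CPM. The THP points of Slc2a1, Slc2a6 and Slc16a3 lie to the right of the vehicle points and those of Hk1, Vegfa and Ndrg1 to the left, while the points of Gpi1, Pfkl and Pkm nearly coincide.

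Among the transporters, 3 of 4 were higher in the THP library. Slc2a6, a hexose transporter, was at 38.1 CPM (37.2 to 38.9) in the THP library against 18.2 (17.6 to 18.8) in the vehicle library, which made a log2 ratio of 1.02 that became 0.96 without the length trend. Slc2a1, the widely used glucose transporter GLUT1, was at 49.6 CPM (48.7 to 50.5) against 27.9 (27.2 to 28.7), a log2 ratio of 0.81. The 2 libraries' intervals did not overlap for either gene. Slc16a3, the lactate exporter MCT4, was at 65.5 CPM against 43.0, a log2 ratio of 0.60. It was not past 1.5-fold with at most 5% mitochondrial UMIs or the same mix of gated cells. Slc16a1, the related monocarboxylate transporter MCT1, went the other way, at 8.62 CPM against 12.4 (log2 ratio -0.47). Slc16a1 thus supplied 11.6% of the UMIs of these 2 lactate transporters in the THP library against 22.3% in the vehicle library.

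Hexokinase traps glucose in the cell as its phosphate, and its isoenzymes did not move alike. Hk1, the isoenzyme most tissues use, was at 33.7 CPM (32.9 to 34.4) in the THP library against 62.8 (61.7 to 63.9) in the vehicle library, with the lowest log2 ratio of the 34 genes (-0.88, or -0.75 without the length trend). Hk2, the inducible isoenzyme, was at 31.1 against 37.0 CPM, and Hk3, the isoenzyme of myeloid cells, at 75.7 against 85.3. Their log2 ratios, -0.24 and -0.17, lay near the median of all genes and turned above 0 with TMM or RLE scaling. The Hk1 share of hexokinase UMIs was 24.0% (23.5 to 24.4) in the THP library against 33.9% (33.5 to 34.4) in the vehicle library, and the Hk3 share was 53.9% and 46.1%. Slc2a6 is annotated in GENCODE M21 (mm10) on the minus strand of chromosome 2 from 27021363 to 27027998, and Hk1 on the minus strand of chromosome 10 from 62268855 to 62379908. Shares of UMIs are not scaled for transcript length and are compared here between libraries and cells only.

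The next steps of the pathway differed less. Gpi1, glucose phosphate isomerase, had a log2 ratio of -0.028, which turned above 0 with TMM or RLE scaling or the same mix of gated cells. Pfkl and Pfkp, phosphofructokinase isoenzymes, had log2 ratios of 0.049 and -0.23, and the intervals of Pfkl overlapped while Pfkp turned above 0 with TMM or RLE scaling or the length correction. Pfkm, the muscle isoenzyme, stayed under 10 CPM at 2.78 and 3.75. The enzymes that set fructose 2,6-bisphosphate, the activator of phosphofructokinase, were both lower. Pfkfb3 was at 7.20 against 11.4 CPM (log2 ratio -0.60). Pfkfb4 was at 9.69 against 16.1 CPM (log2 ratio -0.68). With Hk1 these are the 3 enzymes past 1.5-fold lower, of which Hk1 alone was so with TMM or RLE scaling.

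Among the enzymes from aldolase onwards, most were slightly higher in the THP library. Log2 ratios were 0.30 for Aldoa (aldolase), 0.31 for Tpi1 (triose phosphate isomerase) and 0.18 for Gapdh, the dehydrogenase often used as a reference gene. They were 0.20 for Pgk1 (phosphoglycerate kinase), 0.15 for Pgam1 (phosphoglycerate mutase) and 0.25 for Ldha (lactate dehydrogenase A). Aldoa, for example, was at 1008 against 816 CPM and Ldha at 806 against 679. By longest annotated transcript, which need not be the one the cells made, these are short, except Gapdh at 3289 bases. Without the length trend they came to 0.074 for Aldoa, 0.085 for Tpi1, 0.0093 for Pgk1 and 0.051 for Ldha, while Pgam1 turned to -0.052. Gapdh came to 0.20, a value that rests on its listed length. Each of these stayed above the median of all genes with that correction, -0.17. Eno1 (enolase) was the exception, at 308 CPM (306 to 310.5) against 409.8 (407 to 413), a log2 ratio of -0.41. Its near copy Eno1b held 903 UMIs in the THP library against 2015 in the vehicle library, so reads could be split between them. Pkm (pyruvate kinase) had a log2 ratio of -0.051, which turned above 0 with TMM or RLE scaling. Aldoc, an aldolase of low level here, was at 8.92 and 8.18 CPM with overlapping intervals.

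**Figure D2:**
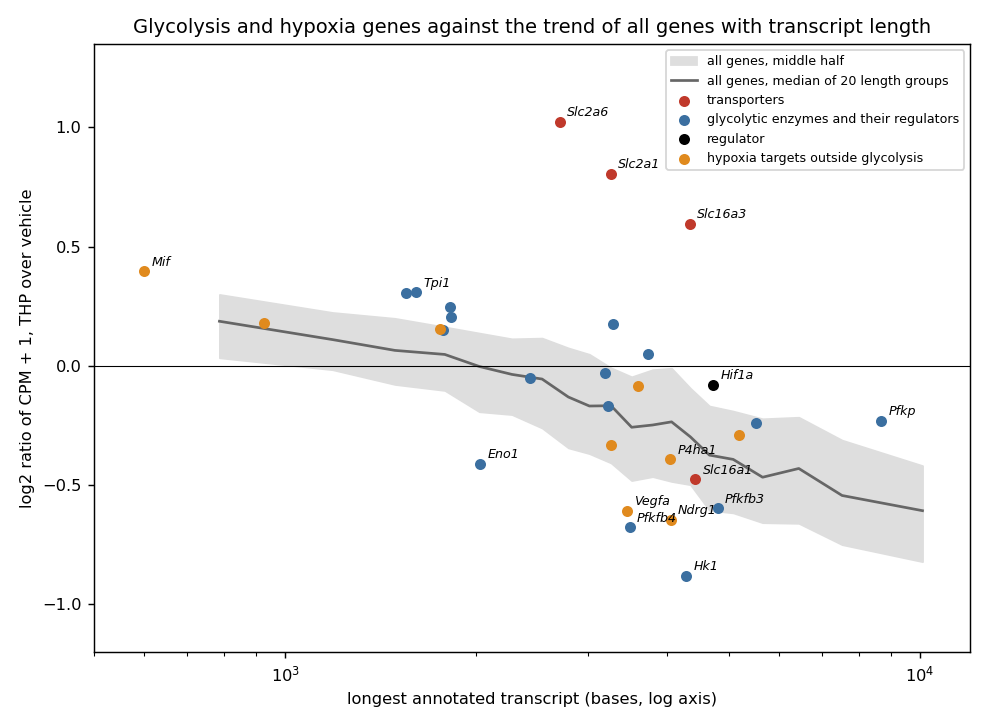
Log2 ratio of CPM + 1 (THP over vehicle, all kept cells) of the genes against their longest annotated transcript in bases (log axis), coloured by role, with the median and the interquartile band of all genes in 20 length groups. Slc2a1, Slc2a6 and Slc16a3 sit farthest above the grey band. Aldoa, Tpi1, Pgk1, Ldha, Gapdh, Pfkl, Pfkp and Hif1a also lie above it, and Hk1, Pfkfb4, Vegfa, Ndrg1 and Eno1 below it. The line itself is above 0 for the shortest messages, where Mif lies.

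Hif1a itself was at 72.5 CPM in the THP library and 76.6 with vehicle, a log2 ratio of -0.079 that turned above 0 with TMM scaling, RLE scaling, equal weight per cell or the length correction. The prolyl hydroxylases that mark HIF for destruction are themselves HIF targets. Egln1 was at 52.5 against 55.7 CPM, a difference whose sign turned with TMM or RLE scaling, and Egln3 was at 6.09 against 9.45, under 10 CPM in both. HIF is controlled mainly at the protein level, which was not measured.

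Of the 9 hypoxia targets at 10 CPM or more, 6 had a ratio below 0, a share near the 67.6% of all genes. Vegfa, the vascular growth factor, was at 15.8 CPM (15.3 to 16.3) in the THP library and 24.6 (23.9 to 25.2) with vehicle, a log2 ratio of -0.61. Ndrg1, a stress-induced gene, was at 16.5 CPM (16.0 to 17.1) against 26.4 (25.7 to 27.1), a log2 ratio of -0.65. These were the 2 targets past 1.5-fold lower, and neither was with TMM scaling, RLE scaling or the length correction. P4ha1 (a collagen prolyl hydroxylase subunit), Bnip3l (a mitophagy receptor) and Pdk1 (the kinase that keeps pyruvate out of mitochondria) had log2 ratios of -0.39, -0.33 and -0.29. Ddit4, an inhibitor of mTORC1 signalling, stayed under 10 CPM at 4.33 and 6.18. The 3 targets above 0 were Mif (a cytokine) at 0.40, Ankrd37 at 0.18 and the mitophagy receptor Bnip3 at 0.15. All 3 are short messages, and without the length trend they turned to -0.0058, -0.15 and -0.049. All genes had a median of -0.17 with that correction, so the 3 stayed above it.

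The neighbouring pathway genes outside the 34 lay close to all genes, of which 67.6% had a ratio below 0. Of 42 other genes of glycolysis and pyruvate use, 20 reached 10 CPM, with a median log2 ratio of -0.17, 5 above 0 and 15 below, and none was past 2-fold. The largest differences were Slc2a3 (the glucose transporter GLUT3) at -0.84, Adpgk (an ADP-dependent glucokinase) at -0.71, Slc16a7 at -0.65 and Ldhb at -0.48. Of 11 pentose phosphate genes, 9 reached 10 CPM, with a median of -0.21 and none past 1.5-fold. Of 47 other hypoxia response genes, 27 reached 10 CPM, with a median of -0.24, 10 above 0 and 17 below. There Mxi1, a MYC antagonist, was past 2-fold lower, at 13.8 against 31.4 CPM. The next largest were Cxcr4 at -0.83, Zfp395 at -0.77 and Kdm3a, a histone demethylase, at -0.73. Of these 3 lists, then, Mxi1 was the single gene past 2-fold.

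The cultures held more than macrophages, so cells were gated on the UMI share of marker genes, and each gate is a range of marker level, not a type. The macrophage gate held 4512 cells (37.2% of kept cells) in the THP library and 2646 (24.1%) with vehicle, with 475 and 264 of them within 25% of the limit. Gates for progenitor, immature neutrophil, mature neutrophil, monocyte, antigen-presenting and osteoclast-like cells held 473 to 1802 cells in the THP library against 585 to 2284 in the vehicle library. All 8 macrophage markers reached 10 CPM in the macrophage gate of both libraries, with summed levels of 2798 and 3040.0 CPM. The gate is set on these same markers, so their level does not check it. All 8 also reached 10 CPM in the ungated cells of both libraries, with summed levels of 1182 and 1231 CPM. Division markers summed to 919 CPM in the macrophage gate of the THP library against 1395 with vehicle.

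In macrophage-gated cells Slc2a1, Slc2a6 and Slc16a3 were again higher in the THP library and Hk1 lower. Slc2a6 was at 29.6 CPM (28.6 to 30.7) in the THP library against 13.03 (12.2 to 13.9) in the vehicle library (log2 ratio 1.13), the 1 gene of 29 past 2-fold higher, against 1.02% of all genes. None was past 2-fold lower, against 2.51%. At 1.5-fold, Slc2a6 and Slc2a1 were higher (2.31% of all genes) and Hk1 and Pfkfb4 lower (16.1%). Slc2a1 was at 48.2 against 28.2 CPM, Slc16a3 at 73.4 against 49.8, and Hk1 at 30.2 against 50.2. Hk2, by contrast with the whole culture, was higher in the THP library at 24.3 against 19.3 CPM, but at 27.6 against 27.1 in the cells with few division transcripts described below. Pfkfb3 also differed from the whole culture, at 6.83 against 5.80 CPM, under 10 CPM in both and with overlapping intervals. The enzymes had a median log2 ratio of 0.047 and the hypoxia targets of -0.12, with all genes at -0.16; the enzyme median turned to -0.083 with the length correction, and the target median to 0.12 with TMM scaling.

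The share of macrophage-gated cells with at least 1 UMI followed the levels once each cell was thinned to 5000 UMIs, which left out 116 THP and 57 vehicle cells. Slc2a6 was then seen in 12.9% of THP and 5.95% of vehicle cells (43.1% and 23.7% before thinning). Hk1 was seen in 14.2% and 21.5% (47.4% and 63.9% before thinning). In progenitor-gated cells, the gate with the lowest Slc2a6 level, the thinned Slc2a6 shares were 8.42% and 4.08%. Median depths were 20870 and 22890.5 UMIs in the macrophage gate and 16900 and 20537.5 in the progenitor gate. Free RNA can give part of any such share, and no gate is known to lack these genes.

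The differences were also measured apart from cell division. With macrophage-gated cells split by division markers (1662 dividing and 2030 with few division transcripts in the THP library, and for vehicle 1260 and 1058), Slc2a6 was at 31.9 CPM in the THP library against 15.5 in the vehicle library among cells with few division transcripts. Among dividing cells it was at 27.4 and 11.5. Hk1 was at 30.8 against 51.7 CPM in cells with few division transcripts and 31.1 against 49.5 in dividing cells. Hk2 was at 22.0 against 14.6 CPM in dividing cells. For Slc2a6 and Hk1 the libraries differed in both kinds of cell, while the Hk2 levels of cells with few division transcripts nearly coincided.

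**Figure D3:**
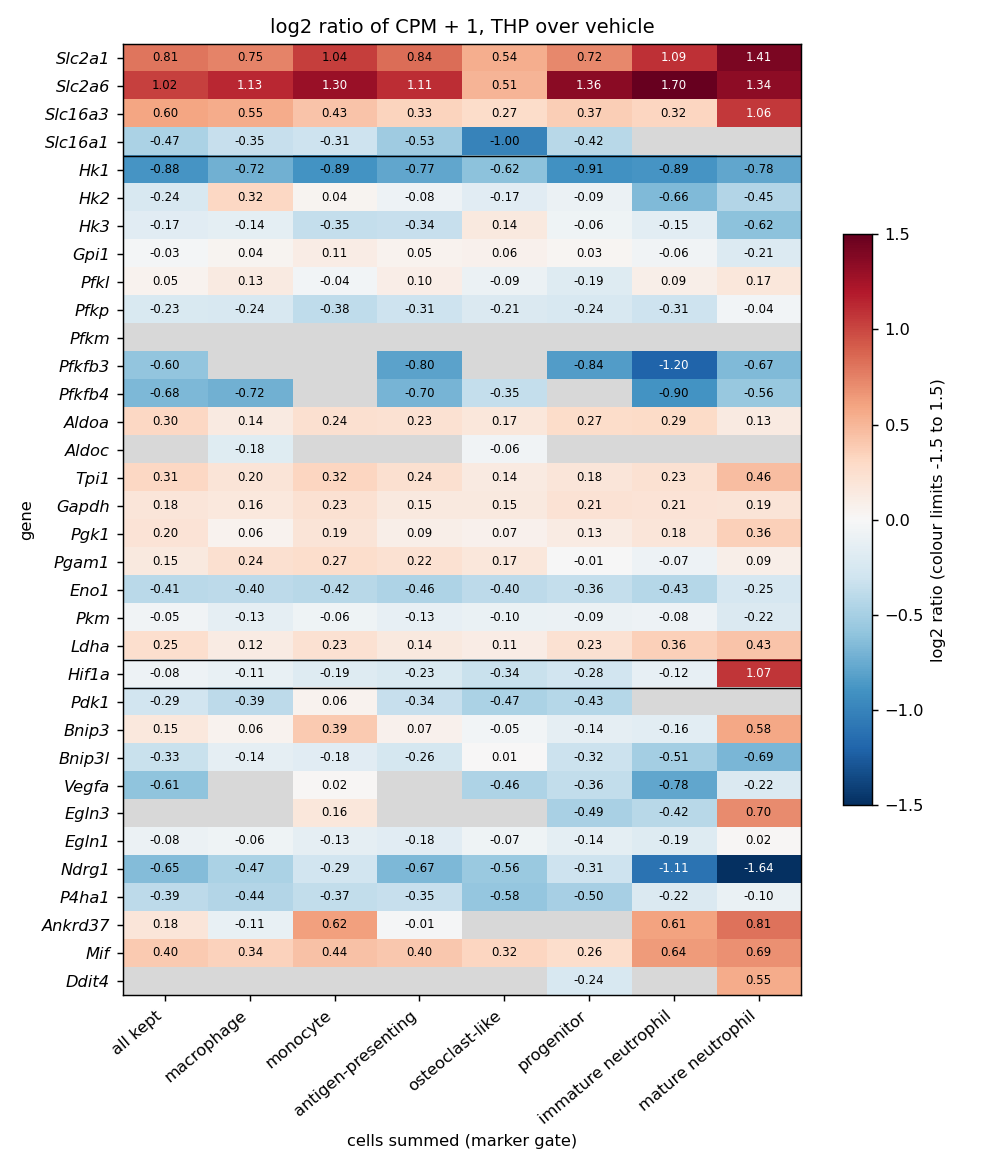
Log2 ratio of CPM + 1 (THP over vehicle) of each gene (rows, by role) in all kept cells and in 7 marker gates (columns), red where the THP library was higher and blue where lower, grey where the gene was under 10 CPM in both libraries, with the ratio printed in each cell. Slc2a1, Slc2a6 and Slc16a3 are red and Hk1, Eno1 and Ndrg1 blue in every column, and the mature neutrophil column departs most for Hif1a and Ndrg1.

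Of the 24 genes at 10 CPM or more in all 7 gates, 15 had a ratio of 1 sign in all of them (62.5%), as did 63.2% of 6282 genes in all. Counting each gene over the gates where it reached 10 CPM, 14 of the 33 that did so in at least 1 gate had ratios of both signs. No share over all genes was taken for that count. Slc2a1, Slc2a6, Slc16a3, Aldoa, Tpi1, Gapdh, Pgk1, Ldha and Mif had ratios above 0 in all 7. With the length correction Aldoa, Tpi1, Pgk1, Ldha and Mif turned below 0 in macrophage-gated cells, but stayed above the median of all genes there (-0.16). Hk1, Pfkp, Eno1, Pkm, Ndrg1 and P4ha1 had ratios below 0 in all 7, although Pfkp and Pkm turned above 0 in macrophage-gated cells with TMM or RLE scaling, and Pfkp with the length correction. The Hk1 log2 ratio ran from -0.91 in progenitor-gated to -0.62 in osteoclast-like-gated cells. Slc2a6 ran from 0.51 in osteoclast-like-gated to 1.70 in immature neutrophil-gated cells. Slc2a1 and Slc2a6 were both past 2-fold higher in monocyte-gated cells (0.839% of all genes past 2-fold higher), and Slc2a6 alone was in the progenitor (0.903%) and antigen-presenting (1.12%) gates. None was past 2-fold lower in the monocyte (2.93% of all genes), progenitor (2.16%) or antigen-presenting (4.26%) gate. In the progenitor gate the macrophage markers summed to 338 CPM in the THP library against 207 with vehicle, and their part in the Slc2a6 difference was not tested. Osteoclast-like-gated cells had no gene past 2-fold higher (0.665%), and there Slc16a1 was past 2-fold lower (1.88%), at 4.88 against 10.8 CPM.

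In mature neutrophil-gated cells 4 of 30 genes were past 2-fold higher, against 2.25% of all genes, and 1 past 2-fold lower, against 10.2%. Slc2a6 was there at 151 CPM (137 to 166) in the THP library against 58.8 (49.8 to 69.0) in the vehicle library. Slc2a1 was at 97.6 against 36.1 CPM and Slc16a3 at 226 against 107. Both libraries had their highest Slc2a6 and Slc16a3 levels in this gate. Hif1a was at 128 CPM (116 to 142) against 60.4 (51.2 to 70.7), a log2 ratio of 1.07, while it was below 0 in the other 6 gates (above 0 in macrophage-gated cells with TMM or RLE scaling or the length correction). Ndrg1 was the gene past 2-fold lower, at 17.4 CPM (12.95 to 22.9) against 56.5 (47.6 to 66.5). Bnip3, Egln3, Ankrd37 and Mif were 1.49-fold to 1.75-fold higher here, and Bnip3l was at 109 against 176 CPM. The enzymes had a median log2 ratio of -0.13 in this gate and the hypoxia targets of 0.29, with all genes at -0.23.

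These cells were shallow, with medians of 2113.5 UMIs in the THP library against 1870 in the vehicle library. Macrophage markers summed to 905 CPM in this gate in the THP library against 626 in the vehicle library. The part of macrophage RNA in these differences was not tested.

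In immature neutrophil-gated cells Slc2a6 was at 34.5 CPM against 9.97 and Slc2a1 at 34.7 against 15.7, the 2 genes past 2-fold higher (1.32% of all genes). Pfkfb3, at 8.31 against 20.4 CPM, and Ndrg1, at 13.5 against 30.3, were the 2 past 2-fold lower (4.04%). Macrophage markers summed to 633 CPM here in the THP library against 382 in the vehicle library, and their part in the differences was not tested. In macrophage-gated cells of the THP library Slc2a6 was at 29.6 CPM and Slc2a1 at 48.2.

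**Figure D4:**
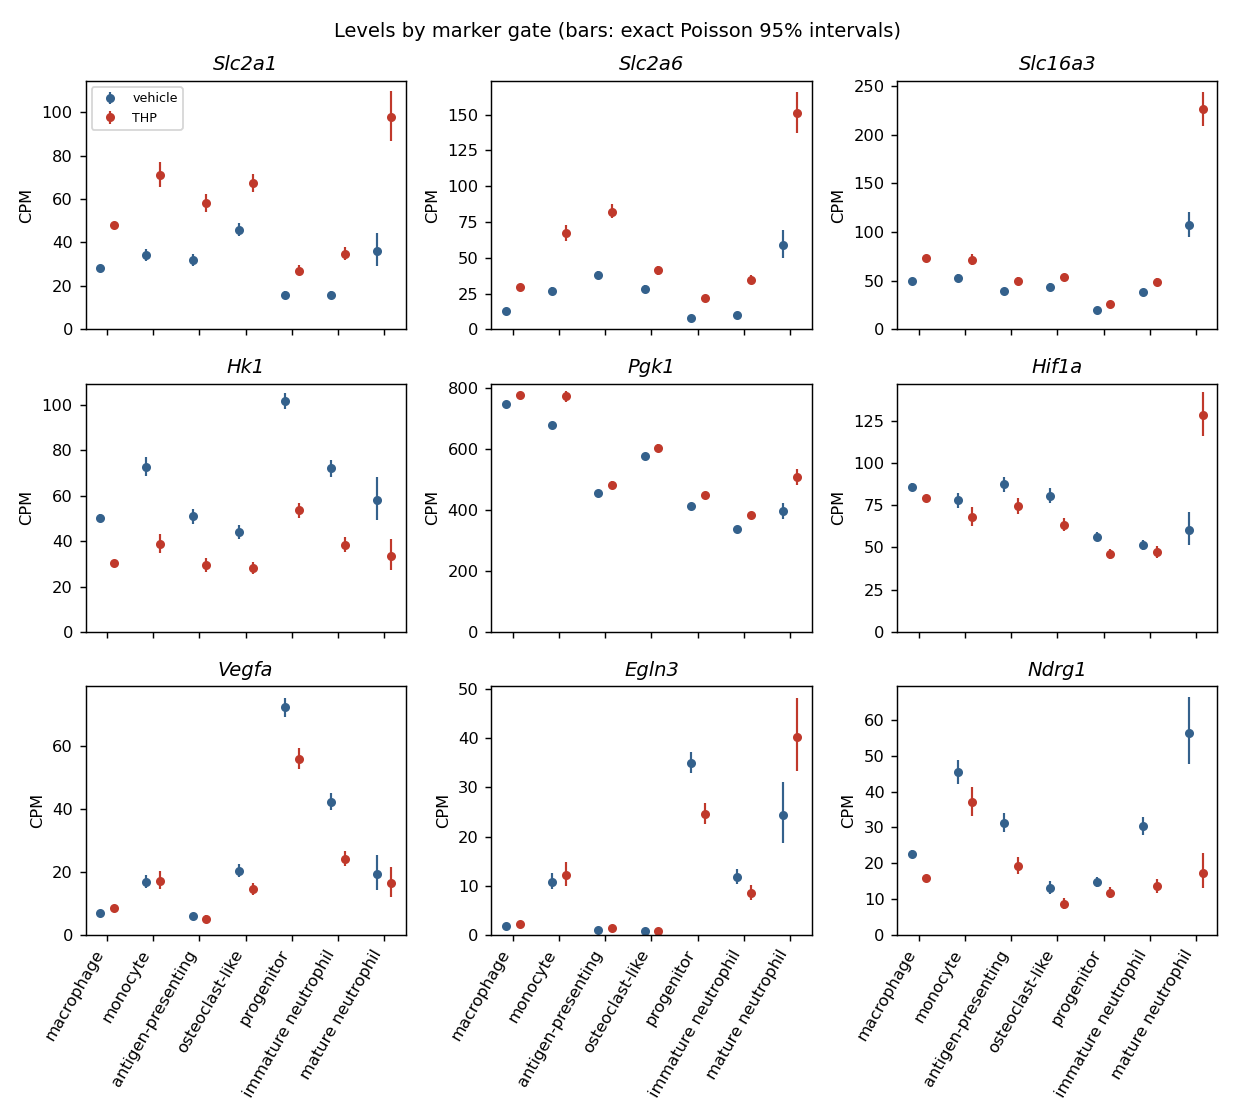
Level in CPM of 9 genes in 7 marker gates of the vehicle and THP libraries (linear axes from 0, exact 95% Poisson bars). Slc2a6 and Slc16a3 peak in mature neutrophil-gated cells of both libraries, Hif1a does so in the THP library alone, and Vegfa peaks in progenitor-gated cells of both.

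In neutrophil-gated cells Slc2a3 held a smaller share of glucose transporter UMIs in the THP library. Slc2a3 was at 51.8 CPM (43.9 to 60.8) in mature neutrophil-gated cells of the THP library against 199 (182 to 217) with vehicle. In immature neutrophil-gated cells it was at 37.3 against 80.3 CPM. Of the UMIs of Slc2a1, Slc2a3 and Slc2a6 together, Slc2a3 thus held 17.3% (14.8 to 19.9) in the THP library against 67.7% (64.2 to 71.0) in the vehicle library in the mature gate. In the immature gate it held 35.0% and 75.8%. In macrophage-gated cells its share was 7.07% and 14.1%, and Slc2a1 held most of the UMIs in both libraries there. Slc2a3 was under 10 CPM in both libraries in the other 5 gates.

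The Hk1 share of hexokinase UMIs was lower in the THP library in all 7 gates, although the intervals overlapped in mature neutrophil-gated cells (19.6 to 27.9 against 22.9 to 30.4%). In progenitor-gated cells it was 26.4% against 39.4%. In macrophage-gated cells the share of Hk2 was 19.3% against 12.99%. Osteoclast-like-gated cells had Hk3 for 74.1% and 65.3% of their hexokinase UMIs, the highest Hk3 share of the 7 gates in each library.

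**Figure D5:**
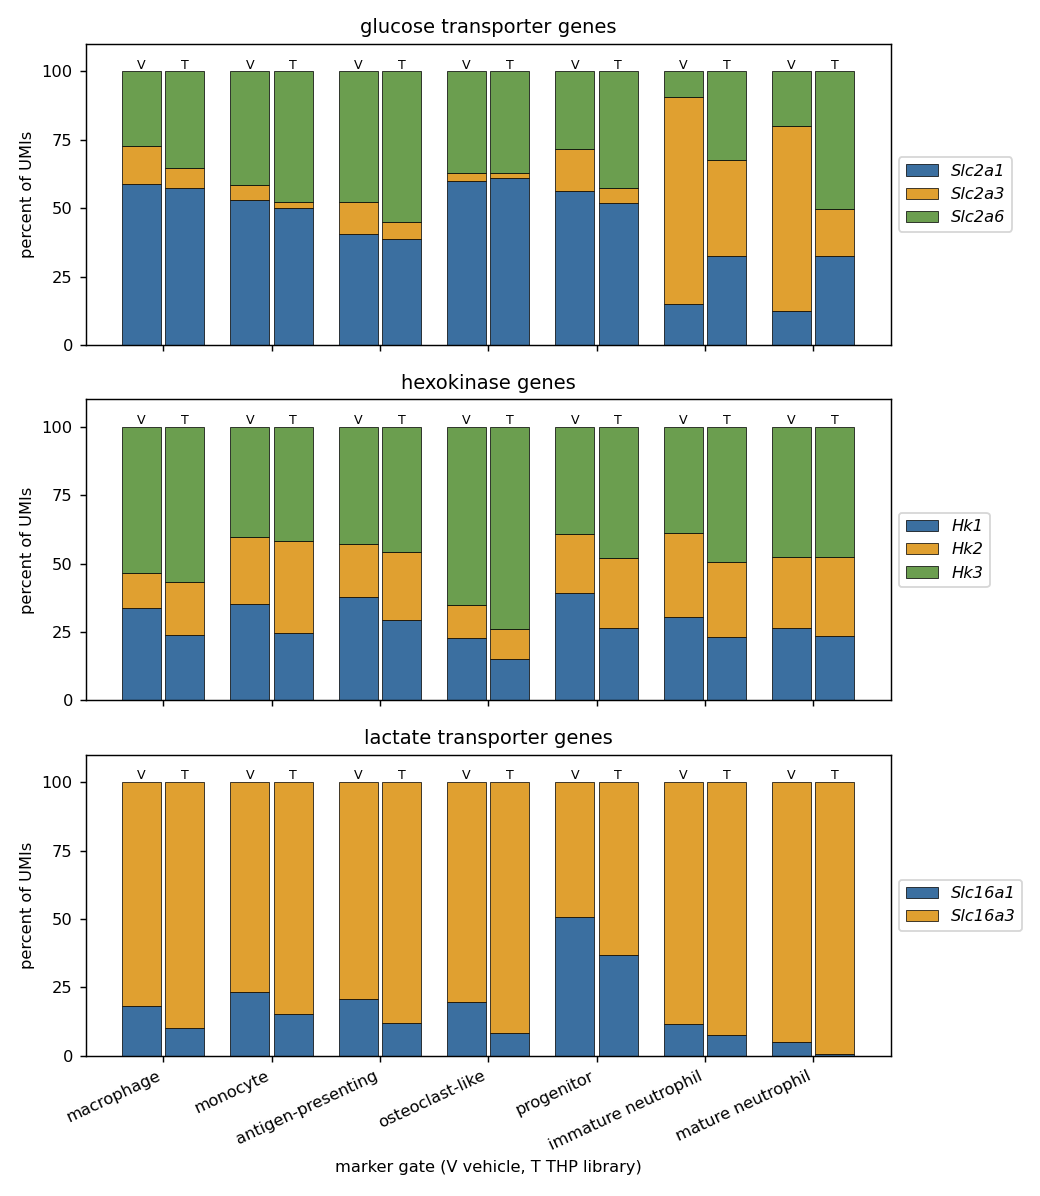
Percent of UMIs held by each gene within 3 families (glucose transporters Slc2a1, Slc2a3 and Slc2a6, hexokinases Hk1, Hk2 and Hk3, lactate transporters Slc16a1 and Slc16a3) in 7 marker gates, with a bar for the vehicle library (V) and the THP library (T). The Slc2a3 part shrinks from 67.7% to 17.3% in mature neutrophil-gated cells, and the Hk1 and Slc16a1 parts are smaller in the THP bar of every gate.

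For Vegfa and Egln3 the gates of a library differed from each other by more than the libraries did. Vegfa was highest in progenitor-gated cells of both libraries, at 56.1 CPM (THP) and 72.5 (vehicle). It followed in immature neutrophil-gated cells at 24.2 and 42.4, was at 8.57 and 6.99 in macrophage-gated cells, and lowest in antigen-presenting-gated cells at 4.85 and 5.84. Monocyte, mature neutrophil and osteoclast-like gates lay between the macrophage and immature neutrophil gates, and their intervals overlapped in each library. In macrophage-gated cells Vegfa was thus slightly higher in the THP library (log2 ratio 0.26, under 10 CPM in both), opposite to the whole culture. Progenitor-gated cells held 9.07% of all UMIs and 32.2% of Vegfa UMIs in the THP library, against 14.7% and 43.4% in the vehicle library. With the same mix of gated cells in both libraries the Vegfa log2 ratio over all cells moved from -0.61 to -0.34, and that of Egln3 from -0.56 to -0.23.

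Egln3 varied most across gates, from 0.771 and 0.659 CPM in osteoclast-like-gated cells to 40.3 and 24.3 in mature neutrophil-gated and 24.7 and 35.0 in progenitor-gated cells. Egln1, by contrast, stayed between 42.0 and 62.3 CPM in all gates of both libraries. Of the 34 genes, 25 had the same highest gate in both libraries, a count for which no share over all genes was taken. It includes Pfkm, which was under 10 CPM in every gate of both libraries. Aldoa, Tpi1, Pgk1 and P4ha1 were highest in macrophage-gated cells of both, and Gapdh, Eno1, Pkm and Egln1 in monocyte-gated cells of both. Hk1, Gpi1, Pgam1, Pfkfb3, Slc16a1, Vegfa, Mif and Ddit4 were highest in progenitor-gated cells of both. Cells in no gate, and those set aside for stromal, B, T or mast cell markers, were not ranked. In the THP library the cells set aside held 1.78% of all UMIs, but 26.6% of Ddit4, 2.96% of P4ha1 and 2.33% of Egln1 UMIs.

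Set against macrophage-gated cells of the same library, single genes differed widely. Ldha was at 389 CPM in immature neutrophil-gated against 901 in macrophage-gated cells of the THP library, and at 303 against 827 in those of the vehicle library. Mif was at 477 CPM in mature neutrophil-gated against 946 in macrophage-gated cells of the THP library, and at 296 against 745 with vehicle. Bnip3l went the other way, at 109 against 72.2 CPM and at 176 against 79.7. In both libraries, then, Mif was lower and Bnip3l higher in the mature neutrophil gate than in the macrophage gate. All genes had a median log2 ratio, mature neutrophil over macrophage gate, of -0.50 (THP) and -0.44 (vehicle), against -0.99 and -1.33 for Mif. For the immature neutrophil gate that median was -0.34 and -0.28.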

How the data were processed

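This summary concerns 2 droplet single-cell RNA-seq libraries, 1 per group. Per the submitters' processing notes, bcl2fastq, Cell Ranger and STAR were used with mm10; no version is given in the sources used here. The deposited matrices hold raw UMI counts per gene and cell (matrix format 2, software 3.1.0 per the file headers). Cells with at least 500 genes, at least 1000 UMIs and at most 10% mitochondrial UMIs were kept. UMIs were summed per library or gate, scaled to 1000000 (CPM) and compared as log2 of CPM + 1, for genes at 10 CPM or more in at least 1 library. With 1 library per group no test was run; a gene was counted at 2-fold, or at 1.5-fold as an alternative. Exact 95% Poisson (levels) and Clopper-Pearson (shares) intervals cover counting error only.

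The 34 genes, all named in the text, and the gene and marker lists were chosen with earlier results of these data known. From each of the 3 lists of other pathway genes, up to 4 with the largest absolute log2 ratio were named. Gates used UMIs per 10000 from the marker lists, with limits set after the data were seen (macrophage markers at 10 or more, with monocyte markers under 10); cells with stromal, B, T or mast cell markers over a limit were set aside. No doublet caller was run and free RNA was not removed; leaving out the 5% of cells with the most UMIs stood in for the former. The length trend was a lowess fit (fraction 0.3, 3 iterations) on the longest GENCODE M21 transcript, with the overall median kept. TMM and RLE factors came from edgeR 4.0.16 (R 4.3.3). Other steps used Python 3.11.15 with numpy 2.4.6, scipy 1.17.1, pandas 2.3.3 and statsmodels 0.14.6, and were tested on simulated data. Aldoa was taken by its gene ID, since a second row bears the symbol (3 and 9 UMIs).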

Additional observations from a re-analysis of the deposited data

Results flagged for a closer look

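Egln3, a HIF prolyl hydroxylase, had opposite directions in 2 gates: its log2 ratio, THP over vehicle, was 0.70 in mature neutrophil-gated cells and -0.49 in progenitor-gated cells. Hif1a likewise had a log2 ratio of 1.07 in mature neutrophil-gated cells and -0.34 in osteoclast-like-gated cells. These cases were picked for opposite signs in 2 gates, at least 2-fold apart, with counting intervals of the libraries that did not overlap. The lack of overlap is thus part of the rule and adds no support. No share of all genes meeting the rule was taken. Each gate of a group comes from 1 library, so the difference between gates was not tested.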

How the results depend on the processing

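No replicate could be left out, since each group is 1 library. No paired analysis was possible because each group holds 1 library with no replicate number. Over all kept cells, the count of genes past 2-fold higher went from 1 to 2 with TMM and with RLE scaling, to 0 with the length correction and to 3 at 1.5-fold, and the count lower went from 0 to 5 at 1.5-fold. The 1.5-fold counts were tried in the other settings after seeing the data. There 3 higher became 6 (TMM), 5 (RLE), 2 (at most 5% mitochondrial UMIs) and 2 (same mix of gated cells), with Slc16a3 lost in the last 2 settings. The 5 lower became 1 (TMM), 1 (RLE), 2 (length correction), 3 (same mix of gated cells) and 4 (equal weight per cell). The enzyme median moved from -0.039 to 0.25 (TMM) and 0.24 (RLE), and the target median from -0.29 to -0.018 (TMM), -0.024 (RLE) and -0.15 (length correction). In macrophage-gated cells the enzyme median moved from 0.047 to 0.30 (TMM), 0.31 (RLE) and -0.083 (length correction), and the target median from -0.12 to 0.12 (TMM) and 0.13 (RLE). Both scalings add about the same amount to every gene; otherwise the cause was not tested. Single genes over all kept cells changed sign in 7 cases of 34 with TMM or RLE scaling, 7 with the length correction, 2 with the same mix of gated cells and 1 with equal weight per cell. None did with the 0.1 CPM pseudocount, all barcodes, at most 5% mitochondrial UMIs or the deepest 5% of cells left out. Restricting macrophage-gated cells to few division transcripts was chosen after seeing the data and changed the sign of 2 genes, Ankrd37 and Ddit4. Depth limits the mature neutrophil gate and genes under 10 CPM most.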
